A study of Homo sapiens with 6 samples.

Results

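The genes described here are 10 components of the NF-kB transcription factor system, among the 20263 genes counted in U118 cells, an established human glioma line whose labels call the cells astroblastoma. They were taken by name: the 5 subunit genes RELA, RELB, REL, NFKB1 and NFKB2, the inhibitor genes NFKBIA and NFKBIE, the feedback gene TNFAIP3, and BIRC3 and TRAF1, whose products bind TNF receptor complexes. The choice was made with earlier results of these data known. All 10 passed the filter on low counts. The study asked what happens when RIPK2, a kinase that passes signals from the NOD receptors to NF-kB, is depleted with siRNA. Each of the 6 libraries came from cells labelled day 2 and kept in the same serum-containing medium: 1 of wild-type cells (WT, read here as untransfected), 1 of cells given a negative control siRNA (siNC), and 4 of RIPK2 knockdown cells (siRIPK2_1 to siRIPK2_4). All came from 1 cell line. Whether the 4 knockdown libraries stand for different siRNAs, separate cultures or repeat transfections is not stated, so p-values measure only the spread between these libraries.

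NF-kB factors are dimers of Rel family proteins. RELA, RELB and REL carry activation domains, while NFKB1 and NFKB2 encode precursors that are processed to the DNA-binding partners p50 and p52. In resting cells inhibitor proteins such as IkB-alpha (NFKBIA) and IkB-epsilon (NFKBIE) hold the dimers in the cytoplasm until the IKK kinases mark the inhibitors for destruction. Several genes of the system are themselves targets of NF-kB, so that its activity induces its own inhibitors, the ubiquitin-editing protein A20 (TNFAIP3) and the TNF receptor partners cIAP2 (BIRC3) and TRAF1.

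Promoter sequence bears on this feedback because the factor binds a short DNA element, so the annotated starts of the members were searched for it. RefSeq windows (GRCh38.p14) running from 250 bases before to 50 bases after a transcription start were found for 8 of the 10 genes, 14 windows in all. RELB and NFKBIE had none in the table used. The NF-kB consensus element, searched on both strands, was found in 7 of the 14 windows and in 6 of the 8 genes: REL, NFKB1, NFKB2, NFKBIA, TNFAIP3 and BIRC3. Of all 35116 windows, 11.3% hold it, and of all 27305 genes with a window 13.3% hold it in at least 1. A shorter form, GGNNTTTCC, whose matches can overlap those of the consensus, was found in 8 of the 14 windows, against 6.26% of all windows. It was the sole match in TRAF1. A match describes letters and does not show that the factor is bound.

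The elements are shown for the 6 genes in windows of 30 bases, 5′ to 3′ on the strand of the gene, with every base of a consensus match in capitals. NFKB2 has 2 matches at each of 2 internal starts, an upstream and a downstream one, and 1 match per start is shown.
REL, chr2:60881517-60881546, plus strand: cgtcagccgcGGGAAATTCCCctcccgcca
NFKB1, chr4:102501300-102501329, plus strand: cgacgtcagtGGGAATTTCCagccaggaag
NFKB2 upstream start, chr10:102394461-102394490, plus strand: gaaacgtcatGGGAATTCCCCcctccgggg
NFKB2 downstream start, chr10:102395674-102395703, plus strand: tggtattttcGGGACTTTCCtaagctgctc
NFKBIA, chr14:35404811-35404840, minus strand: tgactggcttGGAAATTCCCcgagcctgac
TNFAIP3, chr6:137867188-137867217, plus strand: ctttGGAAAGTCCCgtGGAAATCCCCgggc
BIRC3 distal match, chr11:102317275-102317304, plus strand: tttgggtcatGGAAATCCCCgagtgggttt
BIRC3 proximal match, chr11:102317339-102317368, plus strand: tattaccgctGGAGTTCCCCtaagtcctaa

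In TNFAIP3 the 2 matches lie 67 to 58 and 55 to 46 bases before the start, separated by 2 bases. The REL match is 11 bases long because the consensus is met on both strands in overlapping positions. The REL, TNFAIP3 and NFKB2 matches lie inside the gene spans of GENCODE 29, which begin before these RefSeq starts, and those of NFKB1, NFKBIA and BIRC3 lie before the span. NFKBIA, whose product is the classic rapidly resynthesised inhibitor, has its match 81 to 72 bases before the start. Its upstream 250 bases, which precede every annotated exon of the gene (chr14:35404750-35404999, minus strand), are shown whole as the promoter of the most abundant member per exon length.
NFKBIA upstream: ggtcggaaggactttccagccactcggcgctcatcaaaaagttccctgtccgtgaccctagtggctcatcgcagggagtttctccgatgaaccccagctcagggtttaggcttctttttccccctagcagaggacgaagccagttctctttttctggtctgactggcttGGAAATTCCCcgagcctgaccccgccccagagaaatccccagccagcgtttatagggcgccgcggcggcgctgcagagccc

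**Figure D1:**
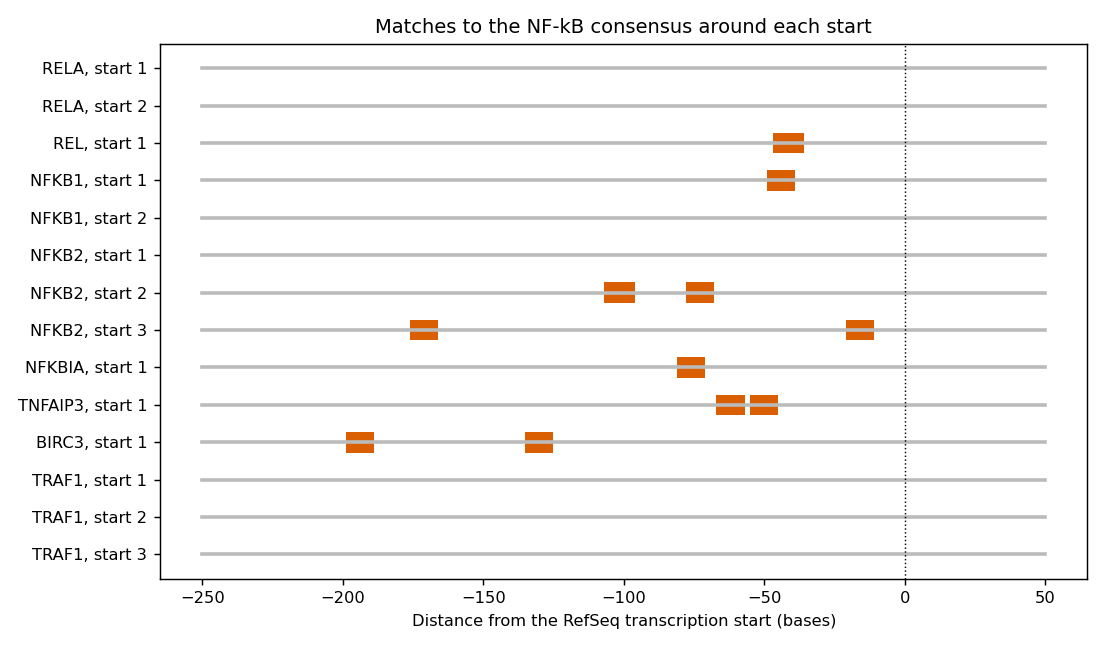
Horizontal lines are the 14 RefSeq windows of the 8 genes, with distance from the transcription start in bases on the x axis, and orange blocks are matches to the NF-kB consensus on either strand. Matches occur in 7 windows, and no window of RELA or TRAF1 has one.

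Across libraries the total count ranged from 33540619 (siNC) to 45309423 (siRIPK2_3), and the members had between 168 counts (REL in siNC) and 4803 counts (RELA in siRIPK2_3). Mitochondrially encoded transcripts took 4.64% of counts in siNC (95% exact binomial interval 4.635% to 4.649%, counting error only), inside the range of the other 5 libraries, 4.10% to 4.71%. Of the glioma-line markers, VIM stood at 3813 to 7573 CPM (counts scaled to library size, with TMM factors), while GFAP, the astrocyte filament gene, was at no more than 1.09 CPM. The stem-cell-associated markers NES and SOX2 were lowest in siNC, at 18.5 and 0.748 CPM, against 69.1 and 2.58 CPM in WT, and reached 73.1 and 14.0 CPM in siRIPK2_1. FN1, the fibronectin gene, was at 2745 CPM in siRIPK2_1 and at 7074 to 9854 CPM in the other 5 libraries. The macrophage markers AIF1 and TYROBP and the lymphocyte markers CD3D and MS4A1 had 0 counts in all 6 libraries. The summed macrophage and microglia list, almost all of it CD68, had its lowest value in siNC (98.3 CPM), with 168 CPM for WT and 108 to 150 CPM for the knockdown libraries. The sum of interferon-response genes was 261 CPM in siNC, inside the 224 to 272 CPM of the other 5. The part of these differences in the results was not tested.

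RIPK2 (chromosome 8) checked the labels. It was at 56.8 CPM in WT, 43.4 CPM in siNC, and 3.86, 11.9, 6.27 and 4.32 CPM in siRIPK2_1 to siRIPK2_4. The knockdown was deepest in siRIPK2_1 (8.89% of siNC) and shallowest in siRIPK2_2 (27.3% of siNC). Against siNC its log2 fold change was -2.72 (SE 0.526, unadjusted p of 0.000946, adjusted p of 0.972 in edgeR), and DESeq2 gave an adjusted p of 0.00731. The edgeR test therefore did not pass even the depleted gene in this design.

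Most members were highest in the negative control library. In 9 of the 10 the siNC library held the highest level of the 6, where 15.2% of the 14306 genes tested did. In the same 9 all 4 knockdown libraries lay below siNC, where 17.3% of all genes did. In 6 of the 10 (RELA, RELB, NFKB2, TNFAIP3, BIRC3 and TRAF1) the 4 knockdown libraries all lay between WT and siNC, against 1.29% of all genes, and none of the 10 lay below both controls in all 4, against 5.5% of all genes. All 4 knockdown libraries were above WT in those 6 genes, against 11.5% of all genes. These counts describe positions around 2 single control libraries. The members were chosen with earlier results of these data known, so the shares of all genes beside them are not a test. In bulk RNA, a smaller share of cells expressing a gene and less of it per cell cannot be told apart.

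**Figure D2:**
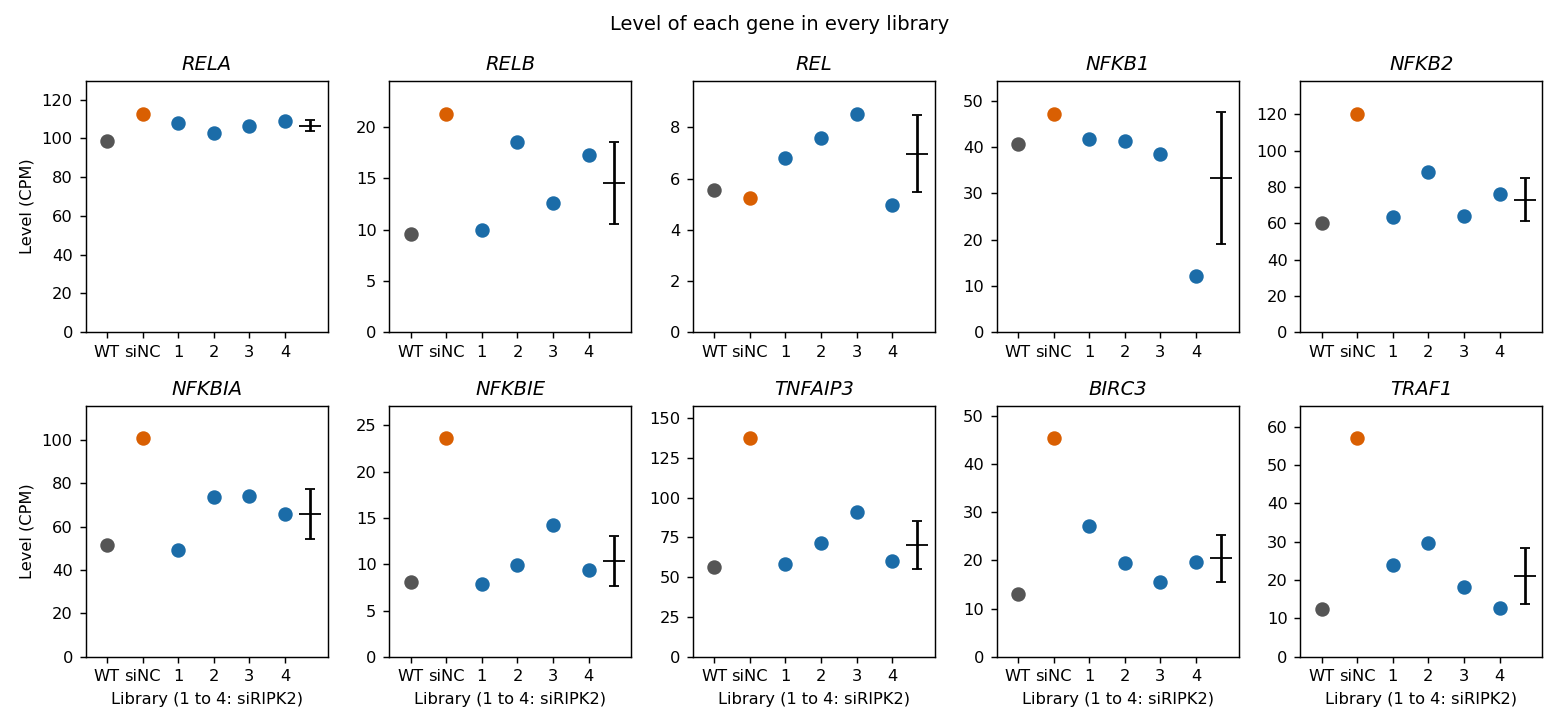
Each panel gives the level of 1 gene in CPM (y axis, from 0) in the WT, siNC and 4 siRIPK2 libraries, with 1 point per library, and the black bar is the mean ± SD of the 4 siRIPK2 libraries. siNC is the highest point in every panel but REL, and NFKB1 in siRIPK2_4 lies alone at 12.1 CPM.

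Among the activating subunits, RELA (chromosome 11, 65653596 to 65663094, minus strand, GRCh38) varied least. It was at 98.7 CPM in WT, 113 CPM in siNC, and 108, 103, 106 and 109 CPM in siRIPK2_1 to siRIPK2_4. The siNC value is the highest and WT the lowest, but the whole range is 1.14-fold. Over the 4 knockdown libraries its coefficient of variation was 2.63%, and only 28 of the 10674 genes with a mean of at least 5 CPM had a lower one, where the median gene had 21.8%. In edgeR the log2 fold change of siRIPK2 against siNC was -0.08 (SE 0.266, adjusted p of 1).

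RELB (chromosome 19, 45001430 to 45038198, plus strand), the partner of p52 in the noncanonical pathway, was at 9.55 CPM in WT, 21.3 CPM in siNC, and 9.94, 18.5, 12.6 and 17.3 CPM in siRIPK2_1 to siRIPK2_4. The knockdown libraries were spread between the controls. On a log2 scale of CPM they lay from 5.01% (siRIPK2_1) to 82.4% (siRIPK2_2) of the way from WT to siNC. Their mean was 14.6 ± 4.01 CPM (SD, n = 4), 68.5% of siNC and 153% of WT. Its log2 fold change was -0.55 against siNC (SE 0.412) and 0.61 against WT (SE 0.447), with an adjusted p of 1 for both in edgeR.

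REL (chromosome 2, 60881521 to 60931610, plus strand) encodes c-Rel, a subunit best known from lymphocytes. It had the lowest level of the subunits. Its 6 values were 5.55 CPM in WT, 5.24 CPM in siNC, and 6.81, 7.58, 8.53 and 4.98 CPM in siRIPK2_1 to siRIPK2_4. It was the 1 member not highest in siNC, and its groups overlapped, with siRIPK2_4 below both controls and the other 3 knockdown libraries above both.

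NFKB1 (chromosome 4, 102501329 to 102617302, plus strand), which encodes p105 and its product p50, was at 40.6 CPM in WT, 47.2 CPM in siNC, and 41.7, 41.4, 38.4 and 12.1 CPM in siRIPK2_1 to siRIPK2_4. The first 5 libraries lay within a narrow band and siRIPK2_4 stood far below it, at 29.8% of WT and 25.6% of siNC. The count behind that value was 440, against 1463 to 1733 in the other 5 libraries. It was 3.17-fold below the lowest of the other 5. Among the 10674 genes with a mean of at least 5 CPM, 29 (0.272%) were at least 3-fold below every other library in siRIPK2_4, and NFKB1 was the 1 member among them. The same count was 33 for siRIPK2_1, 11 for siRIPK2_2, 21 for siRIPK2_3, 12 for siNC and 2 for WT. The nearest tested genes on either side did not share the low value: SLC39A8 in siRIPK2_4 was at 137% and MANBA at 96.4% of its own mean in the other 5 libraries. With all 4 knockdown libraries the log2 fold change of NFKB1 was -0.50 against siNC (SE 0.592) and -0.28 against WT (SE 0.600). Without siRIPK2_4 the values were -0.22 and -0.0035. The adjusted p in edgeR was 1 with and without it.

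NFKB2 (chromosome 10, 102394110 to 102402529, plus strand), which encodes p100 and its product p52, was at 60.2 CPM in WT, 120.3 CPM in siNC, and 63.2, 88.4, 64.2 and 75.9 CPM in siRIPK2_1 to siRIPK2_4. All 4 knockdown values lay between the controls, with siRIPK2_1 and siRIPK2_3 close to WT. The log2 fold change was -0.72 against siNC (SE 0.299, unadjusted p of 0.0429, adjusted p of 1 in edgeR). Its 6 libraries stood in the same order as those of RELB: siNC, siRIPK2_2, siRIPK2_4, siRIPK2_3, siRIPK2_1 and WT, from highest to lowest. This pair was singled out after its values were seen.

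Per kilobase of exon the subunit transcripts can be compared with each other. In WT they summed to 41.5 CPM per kb, of which RELA took 43.5%, NFKB2 32.3%, NFKB1 15.6%, RELB 7.57% and REL 1.01%. In siNC the sum was 62.4 CPM per kb, with NFKB2 (43.0%) ahead of RELA (33.0%). In the knockdown libraries the sum was 44.4, 51.8, 44.7 and 44.9 CPM per kb in order, and RELA led in 3 of 4, with NFKB2 ahead in siRIPK2_2 (38.0% against 36.3%). NFKB2 exceeded NFKB1 per kb by a ratio of 2.07 (WT) and 3.56 (siNC), and the ratio for siRIPK2_1 to siRIPK2_4 was 2.11, 2.98, 2.34 and 8.76. The last value stands apart because NFKB1 is low there, while NFKB2 in that library is within the range of the other knockdown libraries. Exon lengths are the union of all annotated exons, so genes with long alternative 3′ ends, such as REL, come out low on this scale. Intron sequence kept in any annotated transcript also counts. The union for RELA was 5464 bases in 7 blocks, so its order against NFKB2 and NFKBIA can depend on the annotation.

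**Figure D3:**
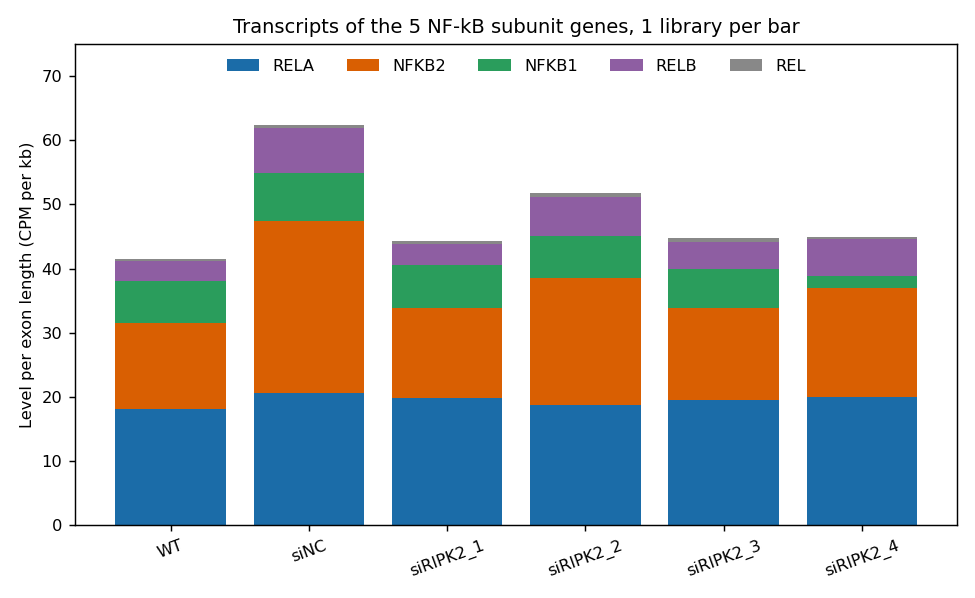
Stacked bars give the level of the 5 subunit genes in CPM per kb of exon (y axis, from 0), with 1 bar per library. The siNC bar reaches 62.4 and the WT bar 41.5, the RELA block is near constant, and the NFKB1 block of siRIPK2_4 is 1.93 against 6.13 to 7.55 elsewhere.

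The inhibitor gene NFKBIA (chromosome 14, 35401511 to 35404749, minus strand) was at 51.6 CPM in WT, 101 CPM in siNC, and 49.4, 73.7, 74.2 and 65.8 CPM in siRIPK2_1 to siRIPK2_4. siRIPK2_1 lay just below WT and the other 3 between the controls. Per kb it was the most abundant member in each of the 6 libraries, at 21.8 in WT and 42.4 in siNC. In siRIPK2_1 the margin was small, 20.8 against 19.8 for RELA. In CPM, without the exon length, NFKBIA stood below RELA in each library. Fitted in edgeR, the log2 fold change was -0.61 against siNC (SE 0.316, unadjusted p of 0.0888) and 0.96 for siNC against WT (SE 0.420, unadjusted p of 0.0517), with an adjusted p of 1 for both in edgeR.

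NFKBIE (chromosome 6, 44258166 to 44265788, minus strand) encodes IkB-epsilon. Its level was 8.10 CPM in WT, 23.6 CPM in siNC, and 7.90, 9.91, 14.2 and 9.35 CPM in siRIPK2_1 to siRIPK2_4. The siNC value was 2.92 times WT, and even the highest knockdown library, siRIPK2_3, reached only 60.1% of it. Its log2 fold change was -1.19 against siNC (SE 0.384, unadjusted p of 0.0153, adjusted p of 0.972 in edgeR) and 0.35 against WT (SE 0.426, adjusted p of 1).

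TNFAIP3 (chromosome 6, 137867188 to 137883312, plus strand) encodes A20, which removes ubiquitin chains that relay the signal. It was at 56.6 CPM in WT, 137 CPM in siNC, and 58.2, 71.5, 91.2 and 60.2 CPM in siRIPK2_1 to siRIPK2_4. The knockdown values began 1.6 CPM above WT and ended well short of siNC. The log2 fold change was -0.96 against siNC (SE 0.321, unadjusted p of 0.0175, adjusted p of 0.972 in edgeR), and 0.31 against WT (SE 0.349, adjusted p of 1).

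TNFAIP3 and NFKBIE kept nearly the same profile on a log scale with 1 CPM added. The added 1 narrows the folds of NFKBIE, the lower of the 2, more. In CPM, siNC over WT was 2.92-fold for NFKBIE and 2.42-fold for TNFAIP3. On log2(CPM + 1) centred on each gene's mean, their values differed by a root mean square of 0.0892 over the 6 libraries, and NFKBIE was the nearest of 10674 genes to TNFAIP3. The next were NUAK2, a kinase gene, at 0.145 and the immunoproteasome subunit gene PSMB10, which shares exon positions with another counted gene, at 0.151. NFKBIA ranked 14th in likeness to TNFAIP3, at 0.195. The order of libraries was the same for NFKBIA and NFKBIE: siNC, siRIPK2_3, siRIPK2_2, siRIPK2_4, WT and siRIPK2_1. The 3 genes nearest to NFKBIA were JMJD7-PLA2G4B, BOLA2 and TRAM2, at 0.114 to 0.129, and all 3 share exon positions with other counted genes, so their counts are uncertain.

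BIRC3 (chromosome 11, 102317450 to 102339403, plus strand) encodes cIAP2, a ubiquitin ligase of TNF receptor complexes. It was at 13.0 CPM in WT, 45.3 CPM in siNC, and 27.2, 19.4, 15.6 and 19.7 CPM in siRIPK2_1 to siRIPK2_4. The 4 knockdown libraries lay between the controls with no overlap, and siRIPK2_1, the lowest of the 4 for 5 other members, was the highest here at 209% of WT. Fitted in edgeR, the log2 fold change was -1.14 against siNC (SE 0.352, unadjusted p of 0.0123, adjusted p of 0.972 in edgeR) and 0.65 against WT (SE 0.398, adjusted p of 1).

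TRAF1 (chromosome 9, 120902393 to 120929173, minus strand) encodes an adaptor that joins TRAF2 and the cIAP proteins. It had the largest fold of the 10 members between the controls, 4.58, with 12.4 CPM in WT and 56.9 CPM in siNC, and 23.9, 29.7, 18.2 and 12.7 CPM in siRIPK2_1 to siRIPK2_4. The knockdown libraries again lay between the controls, from level with WT in siRIPK2_4 (102% of WT) to 239% of WT in siRIPK2_2. Its log2 fold change was -1.43 against siNC (SE 0.426, unadjusted p of 0.0106, adjusted p of 0.972 in edgeR) and 0.77 against WT (SE 0.493, adjusted p of 1). The gene nearest in profile was ID2, an inhibitor of basic helix-loop-helix factors, at a root mean square difference of 0.182, followed by LRIG1 (0.287) and BTD (0.298), which both share exon positions with a gene on the opposite strand. BIRC3 ranked 12th for TRAF1. For BIRC3 itself the nearest were FAM234B (0.157), SEMA7A (0.215) and APOL3 (0.218), and TRAF1 ranked 103rd.

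**Figure D4:**
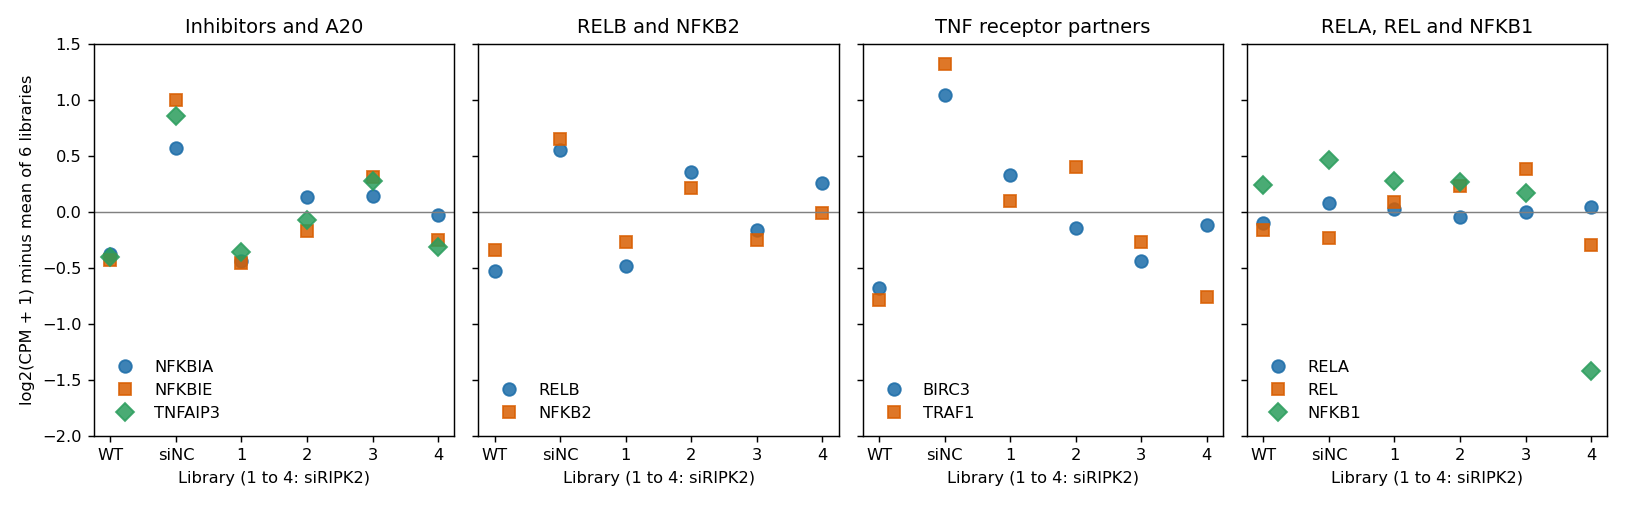
Points give log2(CPM + 1) minus the gene's mean over the 6 libraries (y axis), with libraries on the x axis and genes grouped in 4 panels. TNFAIP3 and NFKBIE nearly coincide, RELB and NFKB2 share 1 order of libraries, BIRC3 and TRAF1 are highest in siNC and lowest in WT, and NFKB1 drops in siRIPK2_4.

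The knockdown libraries did not rank alike across members. Of the 4, siRIPK2_1, with the least RIPK2, was lowest for 5 members (RELB, NFKB2, NFKBIA, NFKBIE and TNFAIP3) and highest for 2 (NFKB1 and BIRC3). The shallowest knockdown, siRIPK2_2, was highest for 3 (RELB, NFKB2 and TRAF1) and lowest for RELA. siRIPK2_3 was highest for 4 (REL, NFKBIA, NFKBIE and TNFAIP3) and lowest for BIRC3. siRIPK2_4, with the next least RIPK2 after siRIPK2_1, was lowest for 3 (REL, NFKB1 and TRAF1) and highest for RELA. The median over members of the difference from siNC in log2(CPM + 1) was -0.97, -0.44, -0.64 and -0.91 in siRIPK2_1 to siRIPK2_4, and from WT it was 0.06, 0.45, 0.44 and 0.16.

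The comparisons share control libraries, so their values are given side by side. For siNC against WT, 9 of 10 members were higher, beside 49.6% of all 14306 genes. The median log2 fold change was 1.08 for members and 0.00 over all genes. For siRIPK2 against siNC 9 of 10 were lower (48.3% of all genes), with a median of -0.67 beside 0.02. For siRIPK2 against WT 9 of 10 were higher (51.9% of all genes), with a median of 0.34 beside 0.01. For siRIPK2 against both controls 8 of 10 were lower (47.9% of 13901 genes), with a median of -0.35 beside 0.01. In edgeR no member passed an adjusted p of 0.05 in any of the 4 comparisons, where the share of all genes that passed was 0% in each.

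At an unadjusted p under 0.05 against siNC, 5 members were lower (NFKB2, NFKBIE, TNFAIP3, BIRC3 and TRAF1), against 1.21% of all genes. The same 5 were higher in siNC than in WT at that level, against 0.643% of all genes. Their unadjusted p for siNC against WT ran from 0.00701 (BIRC3) to 0.0379 (NFKB2), and 0 members reached it against WT or against both controls. DESeq2 called 74 genes against siNC and 11 against both controls, and limma-voom 0 against siNC, with no member among them: the smallest adjusted p of a member over all alternatives was 0.234. In the exact 2-sided permutation test of siRIPK2 against both controls, over 15 arrangements, the members' p ranged from 0.333 (REL) to 1 (RELB), where the smallest the design allows is 0.0667. Both counts of 5 members above rest on the same 1 siNC library, so they are not separate observations. Their edgeR tests took the spread from the knockdown libraries alone. The comparison against both controls depends on siNC: without it the median over members was 0.35 with 9 of 10 higher, and without WT it was -0.67 with 9 of 10 lower.

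**Figure D5:**
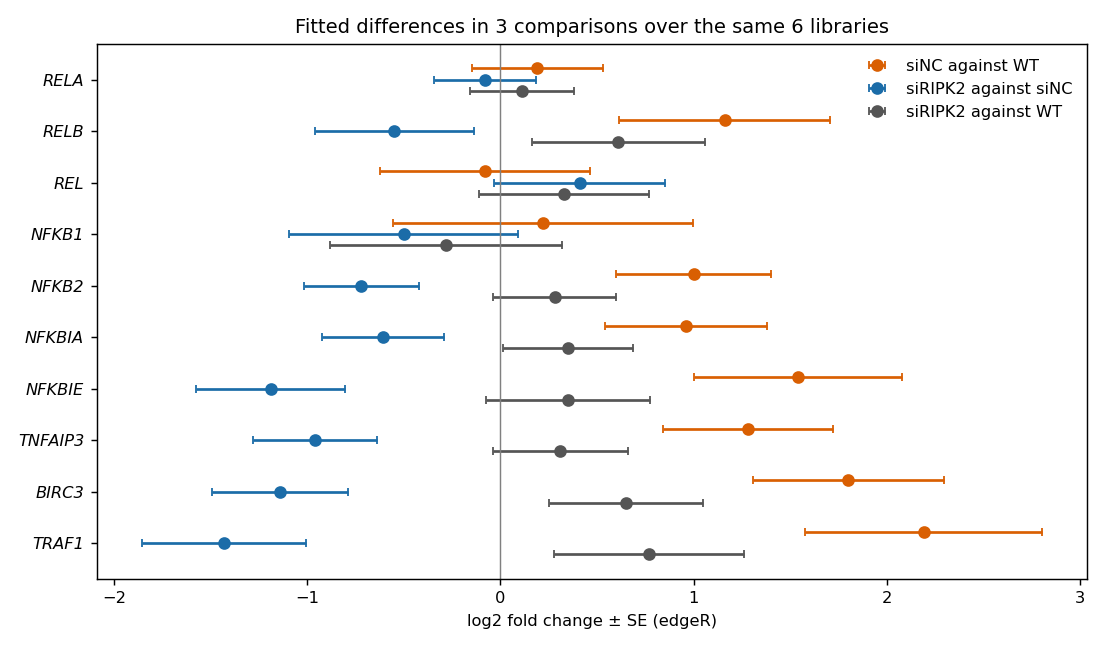
Points are log2 fold changes from edgeR with SE bars (x axis) for the 10 genes (y axis) in 3 comparisons that share libraries. TRAF1 runs from 2.19 for siNC against WT to -1.43 for siRIPK2 against siNC, while the 3 points of RELA lie between -0.08 and 0.19.

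Other genes of the pathway were read from 6 lists. Over all 14306 genes, 48.3% were lower in siRIPK2 than in siNC, with 1.21% lower at an unadjusted p under 0.05, and 49.6% were higher in siNC than in WT. The first list had 9 of 9 genes tested. It held genes of the IKK complex, which phosphorylates the inhibitors, IkB family genes including NFKBIB, and also NKRF and COMMD1. Against siNC 2 were higher and 7 lower, with a median log2 fold change of -0.10, and none reached an unadjusted p under 0.05. IKBKB, which encodes a catalytic IKK subunit, was at 39.4 CPM in WT, 47.0 CPM in siNC and 40.6 ± 7.56 CPM (SD, n = 4) in siRIPK2. COMMD1, whose product promotes the turnover of RELA and which shares exon positions with CCT4 on the opposite strand, was at 22.6 CPM in WT, 32.2 CPM in siNC and 22.2 ± 5.87 CPM in siRIPK2. The inhibitor gene NFKBIB, which shares exon positions with SIRT2 on the opposite strand, was lowest in siNC. It was at 14.6 CPM there, at 24.6 CPM in WT, and from 19.7 to 41.9 CPM over the knockdown libraries. Its log2 fold change against siNC was 1.00 (SE 0.465, unadjusted p of 0.0655 in edgeR).

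In the noncanonical pathway 9 of 10 genes were tested, and against siNC 4 were higher and 5 lower (median -0.06). MAP3K14, which encodes the kinase NIK that triggers p100 processing, was at 60.7 CPM in WT, 133 CPM in siNC, and 33.2, 72.7, 56.3 and 62.5 CPM in siRIPK2_1 to siRIPK2_4. Like RELB and NFKB2 it was highest in siNC, and among the knockdown libraries it was highest in siRIPK2_2 and lowest in siRIPK2_1. Unlike them, MAP3K14 lay below WT in siRIPK2_1 and siRIPK2_3, with a log2 fold change of -0.11 against WT (SE 0.421). Its log2 fold change against siNC was -1.24 (SE 0.392, unadjusted p of 0.0138). TRAF2, which helps to restrain NIK, was at 35.5 ± 9.52 CPM (SD, n = 4) with the knockdown against 22.7 CPM for siNC. TRAF3, which bridges NIK to that complex, was at 20.7 ± 4.74 CPM against 27.4 CPM.

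The relay list had 19 tested genes, for TNF receptor, interleukin-1 and Toll-like receptor signals, with the NOD receptor gene NOD1 counted among them. Of these, 10 were higher and 9 lower against siNC (median 0.03). The receptor gene TNFRSF1B was at 21.2 CPM in WT, 46.3 CPM in siNC and 28.4 ± 8.03 CPM in siRIPK2. RIPK1, the kinase gene of the TNF receptor complex, had 41.6 CPM with WT, 56.2 CPM with siNC and 41.9 ± 8.64 CPM with the knockdown. The adaptor gene MYD88 ranged from 38.6 CPM (WT) to 96.8 CPM (siNC), with 83.3, 80.8, 39.2 and 60.6 CPM for siRIPK2_1 to siRIPK2_4. Its level in siRIPK2_1 and siRIPK2_2 was closer to siNC than to WT. Of 16 other negative feedback genes 4 were higher and 12 lower against siNC (median -0.20). TAX1BP1, an adaptor that helps A20 and shares exon positions with JAZF1 on the opposite strand, had the lowest unadjusted p of this list and was lowest in siNC. It stood at 127.5 CPM in WT, 65.1 CPM in siNC, and 107.7, 126.5, 95.6 and 88.7 CPM in the knockdown libraries in order. In edgeR its log2 fold change was 0.68 against siNC (SE 0.325, unadjusted p of 0.0693) and -0.97 for siNC against WT (SE 0.395, unadjusted p of 0.0405). CYLD, a deubiquitinase that opposes NF-kB, was at 46.7 CPM in WT, 63.4 CPM in siNC and 35.9 ± 16.7 CPM in siRIPK2. SOCS1, an inhibitor of cytokine receptor signalling, was at 2.91 CPM in WT, 7.45 CPM in siNC and 5.03 ± 0.863 CPM in siRIPK2.

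Of 23 secreted and surface targets 16 were tested, and 15 of these were lower than siNC (median -1.22), 8 of them at an unadjusted p under 0.05 (1.21% of all genes). All 16 were higher in siNC than in WT (median 1.49), as were 49.6% of all genes. CCL20 was at 0.436 CPM in siNC and at 0.0252 to 0.0972 CPM in the other libraries. It passed the filter on low counts through siNC alone, so its direction in both comparisons was fixed by the filter. VCAM1 was also near the floor in WT, at 0.0555 CPM against 2.15 CPM in siNC. CXCL3, a neutrophil chemokine gene, had 29.6 CPM with siNC, 10.2 CPM with WT and 8.15 to 13.1 CPM with the knockdown, a log2 fold change against siNC of -1.41 (unadjusted p of 0.00409). CSF2, the gene of the growth factor GM-CSF, had 19.7 CPM with siNC, 0.999 CPM with WT and 2.75 to 7.53 CPM with the knockdown. IL11, a cytokine gene, was at 0.999 CPM in WT, 2.99 CPM in siNC and 0.552 ± 0.303 CPM in siRIPK2. Of 20 survival and intracellular targets 14 were lower and 6 higher than siNC (median -0.25), with 1 lower at an unadjusted p under 0.05, beside 48.3% and 1.21% of all genes. That gene was PLAU, which encodes the secreted protein urokinase and shares exon positions with C10orf55. The list is therefore not limited to intracellular products, and its median beside that of the secreted list does not separate intracellular from secreted targets. It had 257.4 CPM with WT, 587.2 CPM with siNC, and 437.7, 209.9, 210.1 and 190.7 CPM with the knockdown in order. IRF1, an interferon-regulated transcription factor gene that shares exon positions with IRF1-AS1, had 26.4 CPM with WT, 63.5 CPM with siNC and 36.5 ± 9.97 CPM with the knockdown. SOD2, the mitochondrial superoxide dismutase gene, which shares exon positions with WTAP, was at 72.0 CPM in WT, 164 CPM in siNC and 99.6 ± 26.5 CPM in siRIPK2. None of the 89 tested genes of the 6 lists passed an adjusted p of 0.05 against siNC in edgeR. In the survival list MMP9 also passed the filter through siNC alone, at 0.281 CPM against 0 to 0.121 CPM in the other libraries. Whether the lists differ from the members was not tested.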

How the data were processed

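The authors deposited raw counts per Ensembl gene for 6 poly(A)-selected RNA libraries. FastQC, Trimmomatic, HISAT2 and bedtools with GRCh38 were used, per the submitters' processing notes. For versions, annotation and strand setting the sources used here give nothing, so reads of overlapping antisense genes cannot be told apart. No member shares exons with another counted gene. Symbols were matched for 20148 of 20263 IDs, and coordinates and exon lengths came from GENCODE 29 (GRCh38).

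The quasi-likelihood F test of edgeR 4.0.16 (R 4.3.3) was applied after TMM scaling and filterByExpr at 10 counts, with Benjamini-Hochberg adjustment over all genes tested and a threshold of 0.05. A fit with 3 groups tested 14306 genes with 3 residual degrees of freedom, which come from the knockdown libraries alone, and the single library of each control is taken to share their spread. A fit with both controls as 1 group tested 13901 genes with 4. The biological coefficient of variation was 33.7% in the fit with 3 groups and 31.5% in the fit with 2. Alternatives were DESeq2 1.42.0, limma-voom (limma 3.58.1), other scalings, no filter, a gene length and GC offset, and leaving out each library. A chi-square per degree of freedom of 77.1 or more for every pair of libraries showed no duplicates.

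The members and lists were chosen with earlier results of these data known. Named genes were RIPK2, all members, up to 3 per list with the lowest unadjusted p against siNC at a mean of at least 1 CPM, and the 3 nearest in profile to NFKBIA, TNFAIP3, BIRC3 and TRAF1 at a mean of at least 5 CPM. The planned protein search was not run.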

Additional observations from a re-analysis of the deposited data

Results flagged for a closer look

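With 11 genes and 18 list genes examined, a value lying alone among the 4 siRIPK2 libraries (Dixon's ratio of gap to range above its 95% critical value) was found for 2 genes, and chance flags about 1 in 20. NFKB1 was at 12.1 CPM in siRIPK2_4 and at 38.4 to 41.7 CPM in the other 3, a ratio of 0.887. PLAU, the urokinase gene, which shares exon positions with C10orf55, was at 437.7 CPM in siRIPK2_1 and at 190.7 to 210.1 CPM in the other 3, a ratio of 0.921. What sets these libraries apart was not tested.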

How the results depend on the processing

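Of 420 recomputed log2 fold changes of members, 407 kept direction and call and 13 changed sign. No member passed in any alternative. RELA against siNC became 0.0027 and REL for siNC against WT 0.29 with the length and GC offset. Against both controls, the value without WT and without siNC was -0.09 and 0.12 for RELA, -0.55 and 0.62 for RELB, -0.73 and 0.28 for NFKB2, -0.62 and 0.36 for NFKBIA, -1.20 and 0.36 for NFKBIE, -0.97 and 0.32 for TNFAIP3, -1.15 and 0.66 for BIRC3, and -1.44 and 0.77 for TRAF1. There RELA was -0.0036 and RELB 0.06 without siRIPK2_1, and RELB 0.04 with the offset. The median over members against siNC was -0.55 with the offset, and over the left-out libraries it ran from -0.76 to -0.66. Against both controls it ran from -0.67 (without WT) to 0.35 (without siNC), since each control then stands alone. Genes passing, 0 in edgeR in each comparison, numbered 74 against siNC, 9 against WT, 11 for siNC against WT and 11 against both controls in DESeq2. They numbered 1 against WT in limma-voom and 1 in edgeR without the filter, and 0 to 2 against both controls when 1 library was left out. At an unadjusted p under 0.05 edgeR had 682, 155, 391 and 355 genes in these comparisons. RIPK2 passed in DESeq2 (adjusted p of 0.00731 against siNC, 0.00340 against WT, 1.74e-06 against both controls) and in edgeR against both controls without siRIPK2_2 (0.0431). Over the alternatives the list medians against siNC crossed 0 for the IKK (-0.15 to 0.02), noncanonical (-0.14 to 0.09) and relay (-0.05 to 0.11) lists. They ran from -0.27 to -0.09 for other feedback and -0.38 to -0.17 for survival targets. For secreted targets the median, given above as -1.22, moved both ways. It was -1.63 without siRIPK2_2 and -1.04 without siRIPK2_1, and it was smallest in size without siRIPK2_3. The cause of these shifts was not tested. No paired analysis was possible because the labels number only the siRIPK2 libraries. With 1 library per control, the spread of the controls cannot be measured.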
